A study of Mus musculus with 6 samples.

Results

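The cytosolic ribosomal protein genes described here are the 76 rows, out of 37224 in the deposited expression table, whose Ensembl gene ID carries the symbol of a protein of the cytosolic ribosome (Rpl or Rps with a number and at most one a or x, Rplp0 to Rplp2, Rpsa and Rps3a1). Of these, 45 encode proteins of the large subunit (Rpl and Rplp) and 31 of the small subunit (Rps and Rpsa). Pseudogenes, retrogenes and relatives with other symbols were kept out and are described separately. Fau and Rack1, whose products also sit on the ribosome, do not match the symbols and are treated as neighbours. Rpl24 was not analysed here.

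Expression was measured by RNA-seq in mouse embryonic fibroblasts, cells cultured from embryos, to describe the transcriptional response to low-dose arsenic. The 4 libraries came from wild-type untreated cells, wild-type cells given sodium arsenite, Dot1L-/- untreated cells and Dot1L-/- cells given sodium arsenite, all on a C57BL/6 background and labelled as primary cells. Arsenite, an inorganic arsenic salt that stresses cells through protein thiols and oxidants, was present for 24 h. The treatment protocol lists 5 and 10 µM, and the sequenced dose is not stated. Dot1L is a methyltransferase of histone H3, and how the null allele was made and how many embryos or clones stand behind each culture is not given in the sources used here. Each group held 1 library, so every difference below is between libraries, has no replicate check and carries no p-value. A genotype difference and a difference between the cultures cannot be told apart.

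The cytosolic ribosome translates the messages of the nucleus. Its proteins are made in near-equal numbers and join ribosomal RNA in the nucleolus, and their short, abundant and stable mRNAs begin with an oligopyrimidine tract, the TOP element, through which mTOR and Larp1 control their translation. Mammalian genomes also hold many processed pseudogenes of these genes, and reads can be shared with them.

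Start-site windows of the members with the highest and the lowest arsenite differences in wild-type cells are shown because the pyrimidine tract is the feature these promoters are known for. Each window holds 10 bases before and 20 bases from a RefSeq start in GRCm38.p6, read 5′ to 3′ on the gene's strand, and capitals mark its longest unbroken run of C and T. The first 3 members (Rps24 with 2 starts) had the highest differences, and the others had the lowest among members with an entry.
Rps24, first start: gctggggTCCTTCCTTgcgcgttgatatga
Rps24, second start: cgccgtagccatcatggtgagTCTCCTCgg
Rpl35: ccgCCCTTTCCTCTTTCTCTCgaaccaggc
Rps26: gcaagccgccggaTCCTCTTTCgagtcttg
Rps18: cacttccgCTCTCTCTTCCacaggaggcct
Rpl5: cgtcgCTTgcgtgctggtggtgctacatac
Rpl10: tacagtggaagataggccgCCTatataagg

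The windows of Rps24 lie at chr14:24490668-24490697 and chr14:24490743-24490772 on the plus strand. Those of Rpl35 (chr2:39005112-39005141), Rps26 (chr10:128626487-128626516) and Rps18 (chr17:33955646-33955675) are on the minus strand, and those of Rpl5 (chr5:107900518-107900547) and Rpl10 (chrX:74270806-74270835) on the plus strand. The run was 18 bases in Rpl35 and 11 in Rps18, at opposite ends of the ranking, and 3 bases in Rpl5 and Rpl10. The Rpl5 window begins past the outer gene start given below, so a run at that outer start could lie outside it. Windows follow annotated starts, and a short run in one does not show that the mRNA lacks the tract. A run can lie anywhere in its window, as past the start in the second Rps24 window, so a counted run need not be that tract. RefSeq starts were found for 56 of the 76 members, with 66 starts in all. A run of at least 6 bases was present in 37 of them (56.1%), against 28.7% of 32851 starts of all genes. The 35 members with such a run had a median log2 difference with arsenite of 1.89 in wild type and 1.53 in the null, and the 21 without had 2.17 and 1.77. The ETS-type motif CCGGAAG, searched on both strands of the 300 bases around the start, was found at 25 starts (37.9%) against 8.86% of all starts. TATAAA was found at 6 (9.09%) against 13.6%. Such matches describe letters and not bound sites.

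RPKM, reads scaled to gene length and library depth, came in whole-read steps, and from these steps the depth was recovered as 62972880 reads for untreated wild type, 10833103 for treated wild type, 64699847 for the untreated null and 11879632 for the treated null. Controls were thus 5.81 and 5.45 times deeper. Dot1l itself had an RPKM of 30.4, 5.71, 9.59 and 1.24 in that order, 3.17-fold lower in the untreated null and 4.61-fold lower in the treated null, and it was not at 0. Among 11 fibroblast markers, 9 reached an RPKM of 1 in a library and Thy1 was listed at 0 throughout. Their summed RPKM was 2600.4, 838, 2767 and 1225, so the sum was lower in the arsenite library of both genotypes. Single markers differed from the sums. Without arsenite, 2 of the 9 were at least 2-fold higher and 4 lower in the null (6.45% and 14.7% of all genes). With arsenite, 1 of the 9 was above its control in the null and 0 in wild type. Of the markers of other cell types, 3 of 8 for macrophages and leukocytes, 1 of 7 epithelial, 1 of 6 endothelial, 2 of 7 skeletal muscle and 3 of 7 neural reached an RPKM of 1, with Epcam, Myod1 and Olig2 at 0 and summed RPKM between 0.155 (endothelial, wild type with arsenite) and 122 (neural, untreated wild type). In bulk RNA, fewer cells of a type and less RNA per cell cannot be told apart, and no value here measures RNA per cell.

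Ribosomal protein genes took a larger part of the arsenite libraries in both genotypes. Their summed RPKM was 46397 without and 216083 with arsenite in wild type, and 70505 without and 264267 with it in the null. As a share of all RPKM this was 14.4% and 34.7% in wild type and 20.0% and 39.9% in the null. In assigned reads, which weigh genes by length as well, the share was 5.84% and 24.4% in wild type and 8.48% and 28.6% in the null, a ratio of 4.17 in wild type and 3.37 in the null. Both measures were thus highest in the treated null and lowest in the untreated wild type. Large-subunit genes held 3.53%, 13.7%, 5.00% and 16.3% of the reads in the order given for depth, and small-subunit genes 2.31%, 10.7%, 3.49% and 12.3%.

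All 76 members passed the filter of an RPKM of at least 1 in any library, along with 12512 other genes. The lowest member stood at 73.5 in untreated wild type (Rpl35a), 267 in treated wild type (Rps15a), 92.0 in the untreated null (Rpl22) and 246 in the treated null (Rps15a). Median RPKM was 471, 1868, 619 and 1905. Members filled 51, 59, 53 and 56 of the 100 places with the highest RPKM. The highest member was Rplp1, except in the untreated null, where it was Rps12.

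The 6 members with the highest RPKM in untreated wild type were Rplp1, Rps12, Rps15, Rpl8, Rpl32 and Rplp0. Rplp1, an acidic protein of the stalk that recruits translation factors, had an RPKM of 2309 in untreated and 13210.0 in treated wild type, and of 4882 in the untreated and 22090.1 in the treated null. Rps12, a small-subunit protein, had 2269, 9525, 5654 and 16304. For both genes the treated libraries were above the untreated ones and the null above wild type under either treatment. Rps15, which sits near the decoding site, had 1672, 9584, 1719 and 10254, so it differed little between genotypes. Rpl8 had 1627, 4995, 2486 and 5499, and Rpl32 had 1575, 7196, 2186 and 7247. Rplp0, the stalk's base protein, had 1498, 3399, 2806 and 4865, the smallest arsenite ratio of these 6 genes.

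The order of the members by RPKM was much the same in every library. Over the 76 members, Spearman's rho was 0.95 between the controls of both genotypes and 0.95 between the arsenite libraries. It was 0.86 between control and arsenite in wild type and 0.85 in the null. These are descriptions over genes that share libraries, lengths and counting, and genes are not independent replicates. The plot of RPKM by gene shows the treated libraries to the right of the untreated ones along nearly the whole ranking.

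**Figure D1:**
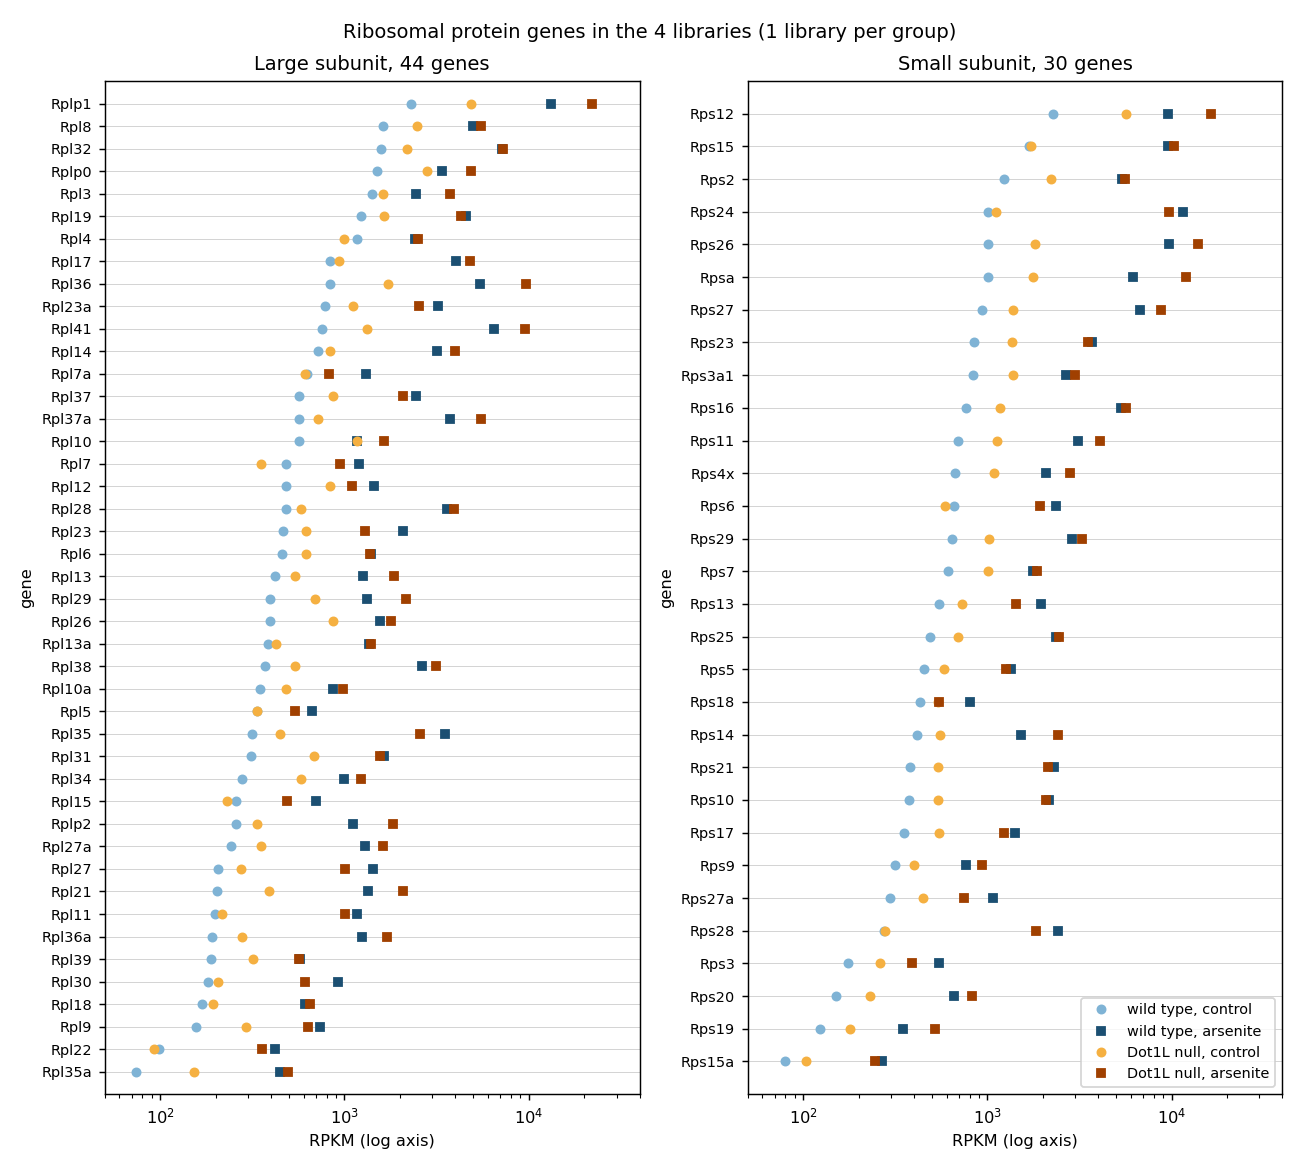
RPKM (log axis) of 44 large-subunit genes (left) and 30 small-subunit genes (right) in the 4 libraries, ordered by the wild-type control; circles are untreated and squares arsenite-treated libraries, blue wild type and orange to brown Dot1L null. The squares lie to the right of the circles of the same genotype for all 74 genes drawn, closest together for Rps18 in the null.

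The arsenite contrast in wild-type cells asks how these genes differ after exposure where Dot1L is intact. Of the 76 members, 73 were at least 2-fold higher with arsenite and 0 at least 2-fold lower, where 12.8% of all 12588 genes past the filter were higher and 35.7% lower. Differences are on the log2(RPKM + 1) scale, which understates the change of low genes but hardly moves genes at the level of the members. The median member difference was 2.09 (0.78 to 3.51), and that of all genes was −0.56. Every member was above 0, also under each other scaling and length setting tried. With each gene set against the median of all genes, 21.6% of all genes were higher and 19.4% lower, and all 76 members were at least 2-fold higher. As deposited, the 3 members under 2-fold were Rpl3 (0.78), Rps18 (0.89) and Rpl5 (0.99).

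Rps24 (ENSMUSG00000025290, chromosome 14, 24490678 to 24496960 in GRCm38), a small-subunit protein whose human counterpart is mutated in Diamond-Blackfan anemia, had the highest difference. It stood at an RPKM of 1013 untreated and 11523 treated in wild type, and at 1113 and 9703 in the null. The treated libraries stood far above both controls, 11.4-fold (11.3 to 11.5) in wild type and 8.72-fold (8.63 to 8.81) in the null. Intervals in parentheses after a fold are exact 95% Clopper-Pearson intervals on the recovered reads, and they cover counting error only. Reads come from amplified libraries and are not independent molecules.

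Rpl35 (ENSMUSG00000062997, chromosome 2, 39001581 to 39005131), a large-subunit protein near the exit of the peptide tunnel, had an RPKM of 317 and 3523 in wild type and 445 and 2572 in the null. It was 11.1-fold higher (11.0 to 11.3) with arsenite in wild type and 5.78-fold in the null, so its treated libraries stood apart by genotype. Rps26 (ENSMUSG00000025362, chromosome 10, 128624529 to 128626506), which contacts mRNA near the exit of its channel, had 1009.7 and 9625 in wild type and 1815 and 13831 in the null, 9.53-fold (9.39 to 9.67) and 7.62-fold (7.54 to 7.71) higher. Rps28 had 275 and 2419.5 in wild type and 278 and 1829 in the null. Rpl41, which encodes a very short basic peptide, had 758 and 6474 in wild type and 1328 and 9554 in the null. Rpl28 had 480.0 and 3605, then 583 and 3926. For each of these genes both treated libraries exceeded both controls.

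At the other end stood Rpl3 (ENSMUSG00000060036, chromosome 15, 80077781 to 80083406), a core protein beside the peptidyl transferase center. It stood at an RPKM of 1419 untreated and 2437 treated in wild type, 1.72-fold higher (1.70 to 1.74), and 1612 and 3721 in the null. Rps18 (ENSMUSG00000008668, chromosome 17, 33951998 to 33955665), in the head of the small subunit, had 432 and 803 in wild type, 1.86-fold higher (1.83 to 1.89), and 539 and 549 in the null. The treated null library was thus 1.02-fold its control, the smallest arsenite ratio of any member. Rpl5 (ENSMUSG00000058558, chromosome 5, 107900508 to 107909005) and Rpl11 escort a small ribosomal RNA into the large subunit and, outside the ribosome, bind the p53 regulator Mdm2. Rpl5 had 336 and 666 in wild type and 334 and 538 in the null. Rpl11 had 198 and 1163, then 216 and 1005, so these partner genes lay far apart in their arsenite ratio. Rpl10 (567 and 1163), which joins the subunit late in the cytoplasm, Rpl4 (1170.4 and 2419) and Rpl7a (628 and 1305) were the next lowest in wild type.

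In Dot1L null cells, 64 of the 76 members were at least 2-fold higher with arsenite and 0 lower, against 15.2% higher and 37.1% lower of all genes. The median was 1.61 (lowest 0.03), with all genes at −0.53. Every member was above 0 as deposited, 75 were with the straight-line length trend removed and 73 with the median of the length bin removed. Set against the median of all genes, 73 members were higher, with 23.4% of all genes higher and 23.8% lower. As deposited, the 12 members under 2-fold included Rps18 (0.03), Rpl12 (0.39), Rpl7a (0.43), Rpl10 (0.47), Rps3 (0.59), Rpl5 (0.68), Rps27a (0.73), Rplp0 (0.79), Rpl39 (0.83), Rps7 (0.89) and Rps13 (0.98). Rps18 and Rpl5 were under 2-fold in wild type too, and 63 members were past it in both genotypes. Over the 76 members the arsenite differences of the genotypes, which share no library, had a Pearson's r of 0.83 and a Spearman's rho of 0.82. Over the 12512 other genes these were 0.79 and 0.77.

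Among the highest in the null were Rps24 and Rps26, then Rpl37a (719 and 5483 in the null, 567 and 3761 in wild type), Rpl41 and Rpsa (1759 and 11973, against 1002 and 6205). Rpsa, known also as the laminin receptor, was highest in the treated null and lowest in the untreated wild type. Rpl12 (ENSMUSG00000038900, chromosome 2, 32961712 to 32964045), at the base of the stalk, had 837 and 1097 in the null, 1.31-fold higher (1.30 to 1.33), and 481 and 1442 in wild type, a log2 difference of 1.58. Its highest library was the treated wild type. Rps3, at the entry of the mRNA channel, had 259.6 and 390.3 in the null and 176 and 547 in wild type, so here too the treated wild type was highest.

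**Figure D2:**
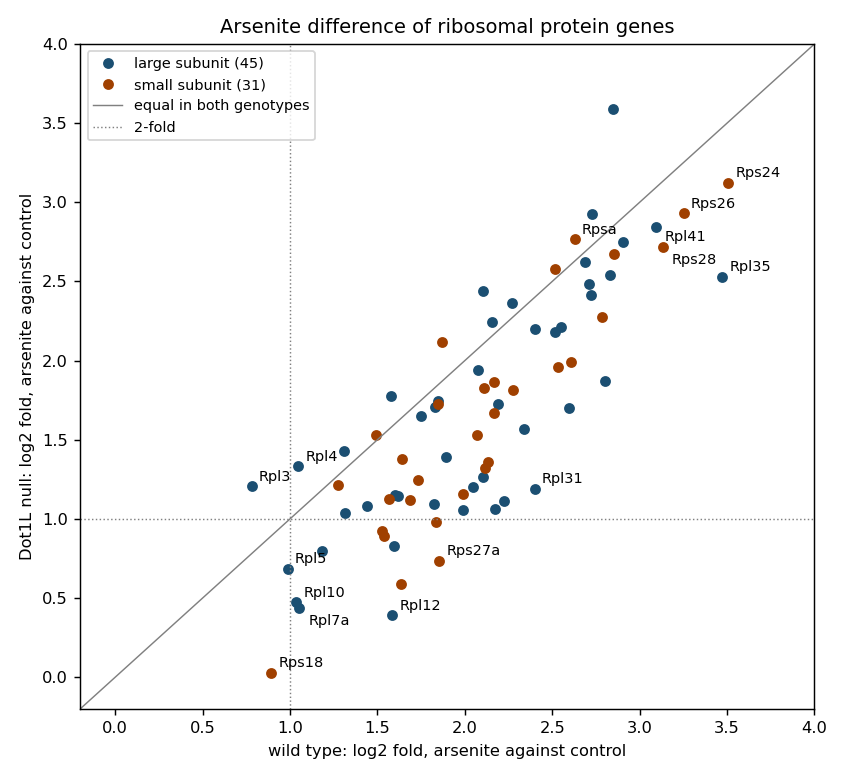
Each point is a ribosomal protein gene, blue for the large and brown for the small subunit, with its log2 difference of arsenite against control in wild type on the x axis and in Dot1L null cells on the y axis; the diagonal marks equal differences and the dotted lines 2-fold. All 76 points lie above 0 on both axes, and 63 lie below the diagonal.

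Without arsenite, most members were moderately higher in the null. The difference was above 0 for 69 members, with a median of 0.51 (−0.46 to 1.32) against −0.17 for all genes. The share of all genes above 0 was not counted. At least 2-fold higher were 8 members, and 0 were 2-fold lower, where 6.45% of all genes were higher and 14.7% lower. Set against the median of all genes, 13 members were higher and 74 above 0, with 8.81% of all genes higher and 11.3% lower. As deposited, the 8 were Rps12, Rpl31, Rpl26, Rplp1, Rpl34, Rpl10, Rpl36 and Rpl35a. Rps12 (ENSMUSG00000061983, chromosome 10, 23785183 to 23787383) stood 2.49-fold higher (2.47 to 2.51). Rpl31, near the tunnel exit, had 309.5 in wild type and 685 in the null, and Rpl26, its neighbour there, 394 and 862. Rpl10 had 567 and 1175, so its untreated null RPKM was close to its treated wild-type RPKM of 1163. Rpl34 had 279 and 579, Rpl36 830.1 and 1718, and Rpl35a 73.5 and 152.

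Below 0 without arsenite were 7 members: Rpl7 (482 in wild type and 351 in the null), Rpl4 (1170.4 and 991), Rpl15 (258 and 231), Rps6 (655 and 585), Rpl22 (98.6 and 92.0), Rpl7a (628 and 609) and Rpl5 (336 and 334). None of these gaps reached 2-fold. Rps6 is the protein phosphorylated by S6 kinases downstream of mTOR. Rpl22 is not needed for translation in general, and its relative Rpl22l1 had an RPKM of 63.2 and 132 in these libraries.

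Between the arsenite libraries the genotype difference of the members centred near 0. Its median was 0.08 (lowest −0.69), with 44 members above 0 and 32 below, and that of all genes was −0.28. At least 2-fold higher in the null was 1 member, and 0 members were 2-fold lower, where 8.75% of all genes were higher and 16.9% lower. Set against the median of all genes, 61 members were above 0 and 6 at least 2-fold higher, with 12.8% of all genes higher and 9.64% lower. Among the highest were Rpsa, Rpl36 (5438 in wild type and 9633 in the null), Rps12, Rplp1 and Rplp2 (1107 and 1824). The stalk genes Rplp0, Rplp1 and Rplp2 were higher in the null under arsenite, by 0.52, 0.74 and 0.72 on the log2 scale. Rpl12, at the base of the stalk, was lower (−0.39). Lowest were Rpl23 (2084 in wild type and 1291 in the null), Rpl7a (1305 and 822), Rpl30 (918 and 613), Rps18 (803 and 549), Rps27a (1073 and 746) and Rpl15 (703 and 489). Rps27a encodes ubiquitin fused to a small-subunit protein. Since both genotype comparisons rest on libraries also used for arsenite, they are not separate evidence.

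The arsenite difference was smaller in the null than in wild type for 63 of the 76 members. The share of all genes with a smaller difference was not counted. It was also smaller in 65 of 76 mitochondrial ribosomal protein genes (median null minus wild type −0.60) and 31 of 36 proteasome genes (−0.71). The difference of the differences, null minus wild type, had a median of −0.40 (lowest −1.21), against −0.06 for all genes. It was at most −1 in 6 members and at least 1 in 0, where 12.8% of all genes were at most −1 and 12.1% at least 1. The 6 were Rpl31 (−1.21), Rpl12 (−1.19), Rps27a (−1.12), Rpl9 (−1.11), Rpl23 (−1.11) and Rps3 (−1.05). Of these 6, 2 (Rpl12 and Rpl31) were still at most −1 with 75th percentile scaling or with the median of the length bin removed, and 5 (all but Rps3) with the median of all genes removed. Rpl9, a large-subunit protein, had 157 and 737 in wild type and 292 and 633 in the null. For Rpl31 and Rpl9 the untreated null was already higher. For Rpl23 the genotype gap was larger with arsenite as deposited (0.42 without and −0.69 with it). With the median of all genes removed, the Rpl23 gap was larger without arsenite (0.59 and −0.41). The same held with 75th percentile scaling and with either length setting. Among the most positive were Rpl3 (0.43), Rplp2 (0.34) and Rpl4 (0.28). This difference was not tested, with 1 library per group.

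Large and small subunit genes had similar medians. In wild type, 43 of 45 large-subunit genes were at least 2-fold higher with arsenite (median 2.10) and 30 of 31 small-subunit genes (2.07). In the null these were 39 of 45 (1.65) and 25 of 31 (1.53). Without arsenite, 7 of 45 large-subunit and 1 of 31 small-subunit genes were at least 2-fold higher in the null, although the medians were 0.46 and 0.55. Between the arsenite libraries the medians were 0.12 and 0.05. The median difference of the arsenite differences was −0.34 in the large and −0.49 in the small subunit.

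Arsenite differences followed gene length over the whole table, and members are short and abundant. A trend with level was not fitted over the whole table. Recovered member lengths ran from 255 to 6262 bases with a median of 1439. Over the 76 members, Pearson's r between log2 length and the arsenite difference was −0.40 in wild type and −0.37 in the null. The 38 shorter members had medians of 2.17 and 1.77, and the 38 longer ones 1.84 and 1.40. Over 12155 genes of at least 200 bases the slope was −0.63 per doubling of length in wild type and −0.66 in the null. Within each length range the member median stood above that of the other genes. At 500 to under 1000 bases the wild-type median was 2.17 for 22 members and 0.96 for 715 others. At 1000 to under 2000 bases it was 1.99 for 27 members and 0.32 for 1891 others, and at 2000 to under 4000 bases 1.58 for 17 members and −0.44 for 4115 others.

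With the straight-line length trend removed, 68 of the 76 members were at least 2-fold higher with arsenite in wild type (16.0% of all genes) and 46 in the null (20.3%), with medians of 1.67 and 1.34. Genes of like length and level were compared too, with level taken over the untreated libraries, since a mean over all 4 lets in genes that rose with arsenite. The 408 other genes within the members' range of length and of mean untreated level were at least 2-fold higher in 28.2% of cases in wild type (median 0.13) and 25% in the null (−0.23). With the mean over all 4 libraries, a choice that the arsenite difference itself enters, 230 genes lay in the range and 55.7% and 52.2% of them were higher. In the 408 genes the untreated genotype median was 0.18 and the median difference of the arsenite differences −0.56, below the −0.40 of the members. Length, level and depth all moved with arsenite or with membership, and their part in the result was not tested.

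**Figure D3:**
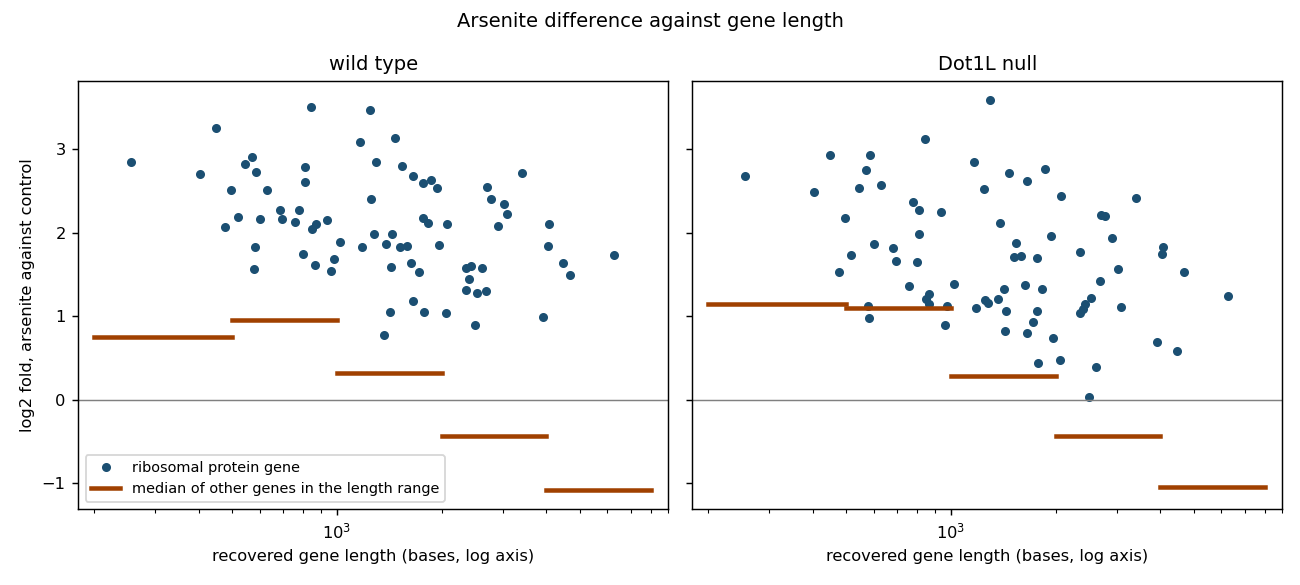
Log2 difference of arsenite against control (y axis) against recovered gene length in bases (x axis, log) for the 76 ribosomal protein genes (points) in wild type (left) and Dot1L null cells (right); horizontal bars are medians of all other genes in each length range. Every wild-type point lies above the bar of its range, and every null point does except Rps13 (0.98) and Rps7 (0.89).

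Reads in named copies were few beside those of the members, but they moved with arsenite. The table held 226 rows named as copies (pseudogenes, retrogenes ending in rt, Rps3a2 and Rps3a3) of 57 members. Of these, 104 were above 0 in some library, for 51 members, and 25 members had none. Copy reads per 10000 member reads were 7.79 without and 22.3 with arsenite in wild type, and 7.03 and 35.6 in the null. These pooled rates rest in part on copies of single genes. In wild type, copies of Rps3a1 held 1850 of 2816 copy reads without and 2530 of 5760 with arsenite. In the null, copies of Rps13 held 2385 of 3791 without and 2762 of 11870 with it. Among copies with at least 20 reads in the untreated library, the ratio of copy to member was higher with arsenite in 13 of 15 in wild type and 16 of 20 in the null. With near-identical sequence, reads of a member and its copies can be split by the aligner, so single copy values are uncertain, and the part of such sharing was not tested.

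Of the copies, 50 passed the filter, and 33 of these did so through the arsenite libraries alone, 11 of them through the treated null alone. A filter of this kind selects copies that are high with arsenite, so no count of higher copies is given. Reads of copies below are not scaled to depth, and the controls were 5.81 (wild type) and 5.45 (null) times deeper. Rps27rt, a retrogene of Rps27, had 9 and 114 reads in wild type and 19 and 429 in the null. Rpl37rt had 43 and 299 in wild type and 85 and 734 in the null. Both copies were highest in the treated null. Of their parent genes, Rps27 had an RPKM of 6755 in treated wild type and 8765 in the treated null, and Rpl37 had 2444 and 2084.

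A pair of genes had copies with a clear genotype pattern. Rps3a3, a copy of Rps3a1 on chromosome 13 (108670580 to 108671443), had 1841 and 2513 reads in the wild-type libraries and 8 and 4 in the null libraries. Rps13-ps1, a copy of Rps13 on chromosome 8 (87047694 to 87048215), had 9 and 19 reads in wild type and 2376 and 2734 in the null. Scaled to depth and length, its RPKM was 0.284 and 3.48 in wild type and 72.9 and 457 in the null. Rps13-ps2 on chromosome 7 (88530403 to 88530924) had 15 and 98 in wild type and 0 and 0 in the null. Each of these copies thus separated the genotypes under both treatments. Relative to the parent gene, copies reached 892 per 10000 reads of Rps3a1 in treated wild type and 2779 per 10000 of Rps13 in the treated null.

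Adding copy reads to the members moved Rps13 most. Its arsenite difference in the null was 0.98 alone and 1.21 with copies, which brought the count there from 64 to 65, and its genotype difference under arsenite went from −0.45 to −0.11. Rps3a1 went from 1.69 to 1.76 for arsenite in wild type and from 0.15 to 0.04 between the arsenite libraries. For 37 of the 51 members with copy reads, copies stayed below 100 per 10000 in all 4 libraries. The 25 members without copy reads were all at least 2-fold higher with arsenite in wild type and 22 of them in the null, with medians of 1.87 and 1.43.

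**Figure D4:**
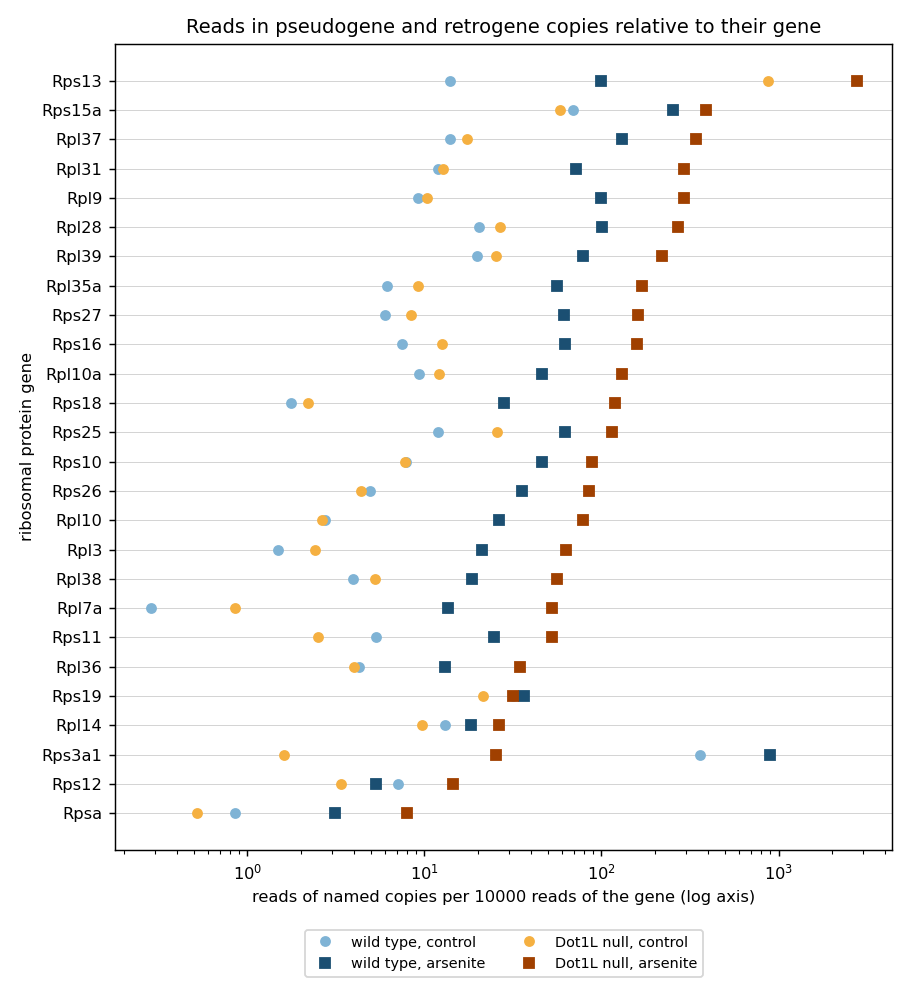
Reads of named copies per 10000 reads of the parent gene (x axis, log) for the 26 members with at least 100 copy reads over the 4 libraries, ordered by the treated null; circles are untreated and squares arsenite-treated libraries, and values of 0 are not drawn. Squares lie to the right of circles in most rows, Rps13 is far higher in both null libraries and Rps3a1 in both wild-type libraries.

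Other ribosome genes gave a mixed picture. Fau, which encodes a small-subunit protein fused to a ubiquitin-like one, had an RPKM of 870.4 and 3776 in wild type and 897 and 4571 in the null, with ratios inside the members' range. Rack1, a scaffold on the small subunit, had 293 and 463 in wild type and 517 and 522 in the null, so its null libraries were level. Of the 8 paralogs with their own symbols, Rpl10l and Rps4l were listed at 0 and Rpl3l and Rpl39l stayed under the filter. Rpl36al (73.6, 501, 93.5 and 754) and Rps27l (45.5, 256, 197 and 541) were higher with arsenite in both genotypes, and Rpl7l1 stood at 52.5, 79.6, 87.2 and 45.7.

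Genes of protein synthesis and turnover were then set beside the members by their counts and medians. Of 76 mitochondrial ribosomal protein genes past the filter, 56 were at least 2-fold higher and 0 lower with arsenite in wild type (median 1.51), and 35 higher and 4 lower in the null (0.97). Mrps21 (15.6 and 218 in wild type, 19.2 and 226 in the null) was among the highest. Of 36 proteasome genes, 23 were higher and 1 lower in wild type (1.27), and 15 higher and 2 lower in the null (0.43). Psmb3 had 47.1 and 428, then 68.9 and 317. Both lists are made mostly of housekeeping genes (median recovered lengths 1715 and 2234.5 bases), and their medians were below those of the members in each genotype.

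Elongation factors, whose mRNAs include further TOP messages, were mixed in direction. Of 9 past the filter, Tpt1 counted among them, 4 were higher and 2 lower in wild type (median 0.91), and 2 higher and 4 lower in the null (0.31). Above 0 were 5 of the 9 in each genotype. Of all genes, 12.8% were higher and 35.7% lower in wild type (median −0.56), and 15.2% and 37.1% in the null (−0.53). Both medians of the elongation factors thus stood above those of all genes. Eef1a1, which brings aminoacyl-tRNA to the ribosome, had 4138 and 2799 in wild type and 5957 and 1774 in the null. Eef2, the translocation factor, had 3369 and 832, then 2054 and 549.7. Both were lower in the treated libraries of either genotype. Of 11 other genes with known TOP messages, 1 was higher and 1 lower in wild type (−0.06), and 2 were higher and 3 lower in the null (−0.60). Npm1, a nucleolar chaperone, had 436 and 345 in wild type and 677 and 109 in the null.

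Genes acting on ribosomal proteins or on their translation did not share the direction of the members. Of 13 chaperone and import genes, 3 were lower in wild type (median −0.21) and 8 in the null (−1.55), with 0 higher in either, where 35.7% and 37.1% of all genes were lower (medians −0.56 and −0.53). In wild type this list thus stood above the median of all genes. Ipo7, an import receptor of ribosomal proteins, had 76.1 and 3.29 in wild type and 89.7 and 0.972 in the null. Of 12 genes listed for the control of TOP translation, 9 were lower and 1 higher in wild type (−1.64) and 10 lower and 0 higher in the null (−1.89). The list also holds Myc, a transcription factor and not a direct regulator of that translation. Myc had 128 and 23.0, then 150 and 6.66, and Larp1 47.0 and 17.0, then 74.1 and 16.4. The median recovered length was 3117 bases for the chaperones and 6374.5 for the TOP control list, against 1439 for the members. The part of length in these contrasts was not tested.

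**Figure D5:**
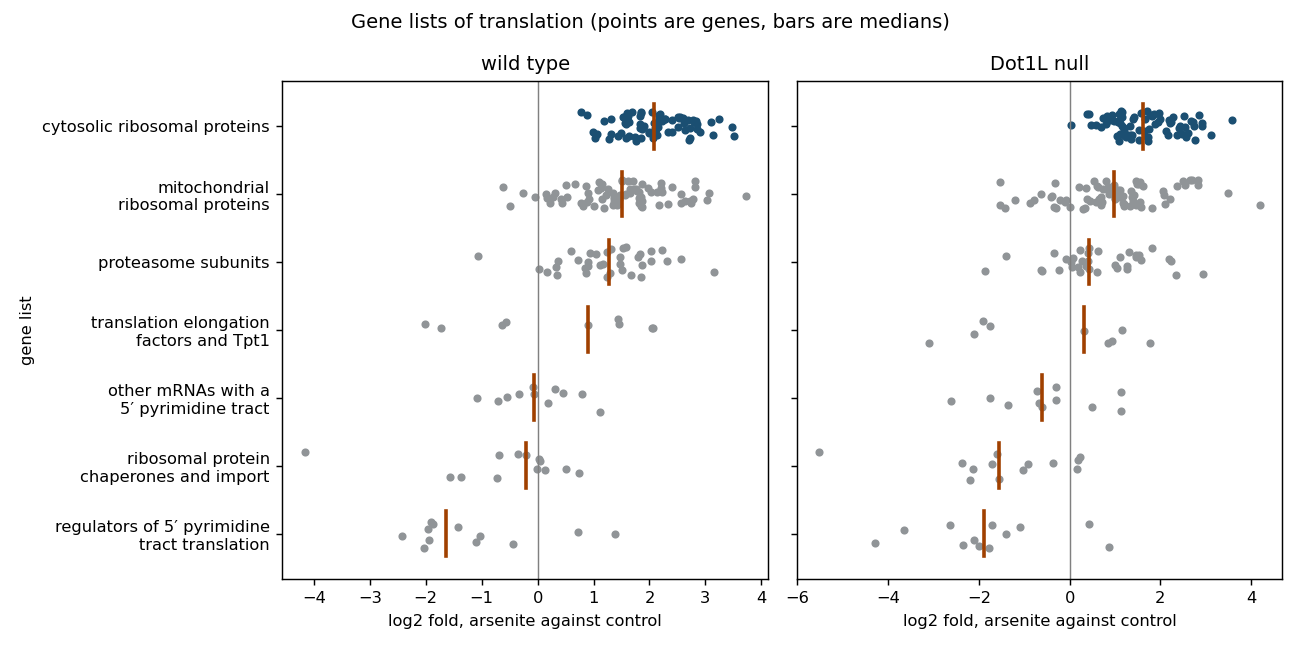
Log2 difference of arsenite against control (x axis) for the genes past the filter of the members and 6 gene lists of translation and protein turnover, in wild type (left) and Dot1L null cells (right); points are genes, spread vertically for visibility, and bars are list medians. Of the lists drawn, cytosolic ribosomal proteins have the highest median in both panels (2.09 and 1.61). The list labelled regulators of pyrimidine-tract translation, which also holds the transcription factor Myc, has the lowest (−1.64 and −1.89). Copies and cell type markers are not drawn.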

How the data were processed

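RNA-seq values of 4 libraries, 1 per group, were used, and 2 libraries of H3K27ac were left out. The libraries were made strand-specific and read as paired ends after depletion of ribosomal RNA, per the labels' protocols, but the molecule is labelled polyA RNA. The submitters' processing notes name TopHat, Bowtie, HTSeq and deepTools with the mouse build mm10, without roles. The authors deposited RPKM per Ensembl gene ID. The annotation and strand setting of the counting were not given in the sources used here. Symbols were found for 35449 of 37224 IDs. Positions and start windows are from RefSeq on GRCm38.p6, the build also called mm10.

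Depth was taken as the most frequent value of 1 read over small RNA genes, and a gene's length as the shortest that made its values whole reads, within a relative tolerance of 1e-12. A true length may be a whole multiple of it. Recovered reads gave intervals, shares and lengths, never a count model. Differences are log2((RPKM + 1)/(RPKM + 1)) over the 12588 genes whose highest RPKM was at least 1, and 2-fold counts as higher or lower. The recovery of lengths and the log2 differences were tried on simulated data, with the depths taken as given. The recovery of depth was not tested. Python 3.11.15, numpy 2.4.6, pandas 2.3.3, scipy 1.17.1 and matplotlib 3.10.9 were used.

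The members and gene lists were chosen with earlier results of these data known. Genes named are the 6 highest and 6 lowest members of each comparison, the 4 members at either end of the genotype gap in the arsenite difference, the 6 highest levels in the wild-type control, neighbours of the ribosome, and up to 4 genes of each other list. Values of some of these genes are not reported here, and counts, shares and medians include them. Members under 2-fold with arsenite, those past 2-fold without it, stalk genes, Rpl11, Rps27, Rpl37, Rpl9, Rps3, Rps13, Rps3a1 and copies were added after their values were seen. Alternatives covered pseudocount, filter, scaling, length, copies and RNA classes.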

Additional observations from a re-analysis of the deposited data

Results flagged for a closer look

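For 8 members the genotype difference changed sign with treatment: the null stood above wild type without arsenite and below it with arsenite, by at least 0.32 on the log2 scale each way. Such a difference was not tested, since each group held 1 library, and the comparisons share the same 4 libraries. In log2 units, without and then with arsenite, Rpl12 stood at 0.80 and −0.39 and Rps27a at 0.59 and −0.53. Rps3 stood at 0.56 and −0.49, Rpl23a at 0.51 and −0.33, and Rpl35 at 0.49 and −0.45. Rpl23 stood at 0.42 and −0.69, and Rpl27 at 0.42 and −0.50. Rps13 stood at 0.41 and −0.45, and with the reads of its copies added at 0.53 and −0.11. The sizes depended on the scaling. All 8 kept opposite signs under each scaling and length setting, but with the median of all genes removed Rpl23 alone (0.59 and −0.41) was past 0.32 both ways, and the other 7 stood between −0.24 and −0.05 with arsenite. Rpl23 was also the only one past it with 75th percentile scaling, against 2 members with the median of the length bin removed and 4 with the straight-line length trend removed. Of the 76 members, 27 had opposite signs at any size. The share of all genes with opposite signs was not counted, so neither count sets the members apart from other genes.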

How the results depend on the processing

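With 1 library per group, no spread between replicates is known, and intervals cover counting error only. No difference of at least 2-fold reversed. No paired analysis was possible because each group held 1 library and the labels give no replicate numbers. The cause of the shifts below was not tested, except where fewer genes were counted. Centring removed the all-gene medians of −0.56 and −0.53 for arsenite in wild type and null, −0.17 and −0.28 for genotype without and with it.

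Of the 25 members without copy reads, 25 were higher with arsenite in wild type and 22 in the null; by subunit, 100% of large and 100% of small members in wild type and 100% of large members in the null. In these 25, 1 was higher in the untreated null (0% of small members), 0 in the treated null (0% of large), and 3 were at most −1 in the difference of the arsenite differences. Members higher in the untreated null numbered 13 after median centring (8.81% of all genes) instead of 8 (6.45%). In the treated null, instead of 1 (8.75% of all genes), they numbered 6 after centring (12.8%) and 5 when scaled to the 75th percentile (12.2%). They numbered 2 there with the straight-line length trend taken out (11.3%) and 3 with the length-bin median taken out (12.2%). The difference of the arsenite differences was at most −1 in 6 members in the main setting (12.8% of all genes). It was so in 3 without the length-bin median (10.7%) and in 2 when scaled to the 75th percentile (11.6%). For arsenite the length-bin setting left 67 higher in wild type (15.9% of all genes) and 45 in the null (19.5%). Without RNA polymerase III and mitochondrially encoded genes the RPKM shares were 14.7%, 35.8%, 20.4% and 40.8%, and the read shares 5.91%, 24.9%, 8.57% and 29.1%, in the order wild-type control, wild type with arsenite, null control and null with arsenite. Chosen after seeing the data, taking the level of other genes over the untreated libraries alone gave 28.2% and 25% higher with arsenite, instead of 55.7% and 52.2%. Another 93 counts or shares stayed within 1.5 times the main value or within its interval.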
